A study of Mus musculus with 12 samples.

Results

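Oligodendrocytes wrap axons of the brain in myelin, a sheath of stacked membrane, and some mRNAs, such as that of Mbp, are known to be carried into it and translated there. The comparison described here is that of myelin RNA at 6 months (6mo) with the 2 adult ages on either side of it, postnatal day 75 (P75) and 24 months (24mo), pooled. It asks which transcripts had a level at 6mo that neither the younger nor the older adult age showed. Its libraries were chosen by age label alone, 3 at 6mo, 3 at P75 and 3 at 24mo, which is 9 of the 12 libraries of the series. Its genes were all those whose normalized read count averaged 10 or more over the 12 libraries, which left 14634 of 21937 genes, and 3103 of those left out were at 0 in every library. The gene just inside this limit was Nrl, with a mean of 10.01, and the gene just outside was Sntb1, with a mean of 9.997. The other 3 libraries are of postnatal day 18 (P18). They entered this filter and the estimate of the spread between libraries, and their levels are given only as a description.

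All animals were male c57Bl6/N mice carrying no labelled mutation and given no labelled treatment, and they differed by age alone. Myelin was a light-weight membrane fraction from brain, enriched on a sucrose density gradient, so the RNA of other cells can be carried along with it. The 6mo libraries came from 3 individual mice. For the other ages the labels only number the libraries, so p-values measure the spread between libraries, part of which may be technical. The brain region, the day of preparation and the sequencing run were not given per library, and a preparation made separately for each age cannot be told apart from age. In such bulk samples fewer cells of a type and less RNA per cell cannot be told apart either.

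The libraries held 20299052 to 27214385 reads on genes, with a median of 26696594 at 6mo. All 24 myelin protein genes of the marker list were measured at all 4 ages, and Mbp (myelin basic protein) alone took 4.76% to 7.03% of the reads at P75, 5.14% to 8.48% at 6mo and 5.34% to 7.52% at 24mo. Neuronal, astrocytic and microglial transcripts were detected as well, and their levels are given below beside the results they move with. Values are normalized read counts, which are reads on a gene divided by the DESeq size factor of the library. They are not divided by transcript length, so levels are compared between ages and not between genes. Differences are on the scale of log2(normalized read count + 1), on which 1 is a 2-fold difference, and are given with the standard error (SE) of limma's test.

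A gene was called higher or lower at 6mo where limma gave a Benjamini-Hochberg adjusted p under 0.1 for the difference between 6mo and the mean of P75 and 24mo. By this rule 3411 genes (23.3% of those tested) were higher and 3609 (24.7%) were lower, 7020 (48.0%) in all. Such a difference can come from 1 of the neighbouring ages only. Of the 3411 higher genes, 1393 were also called higher against each age on its own, 1736 against P75 only and 207 against 24mo only. Of the 3609 lower genes, 1270 were lower against each age, 1933 against P75 only and 347 against 24mo only. P75 and 24mo also differed from each other in 2059 of the higher and 2455 of the lower genes. With P75 and 24mo as 1 group of 6 libraries, so that the difference between them counted as spread, 1782 genes were higher and 1882 lower.

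Differences over 2-fold were 294 higher (2.01%) and 181 lower (1.24%). A second condition kept the genes whose 3 values at 6mo lay outside all 6 values of P75 and 24mo. A gene called higher with all 3 values at 6mo above the other 6 is termed a peak, and the mirror image a trough. There were 1787 peaks (12.2% of the genes tested) and 1618 troughs (11.1%). Most were small. The difference to the nearer of the 2 ages had a median of 0.34 over the peaks and -0.36 over the troughs. At 2-fold or more against both ages there were 59 peaks (0.403%) and 48 troughs (0.328%), and quantile normalization moved this split to 90 and 33. The 6mo libraries enter both the difference from P75 and the difference from 24mo, so each is given as its own value. Against P75 4561 genes (31.2%) were higher at 6mo and 4304 (29.4%) were lower, and against 24mo 1852 (12.7%) and 2435 (16.6%).

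**Figure D1:**
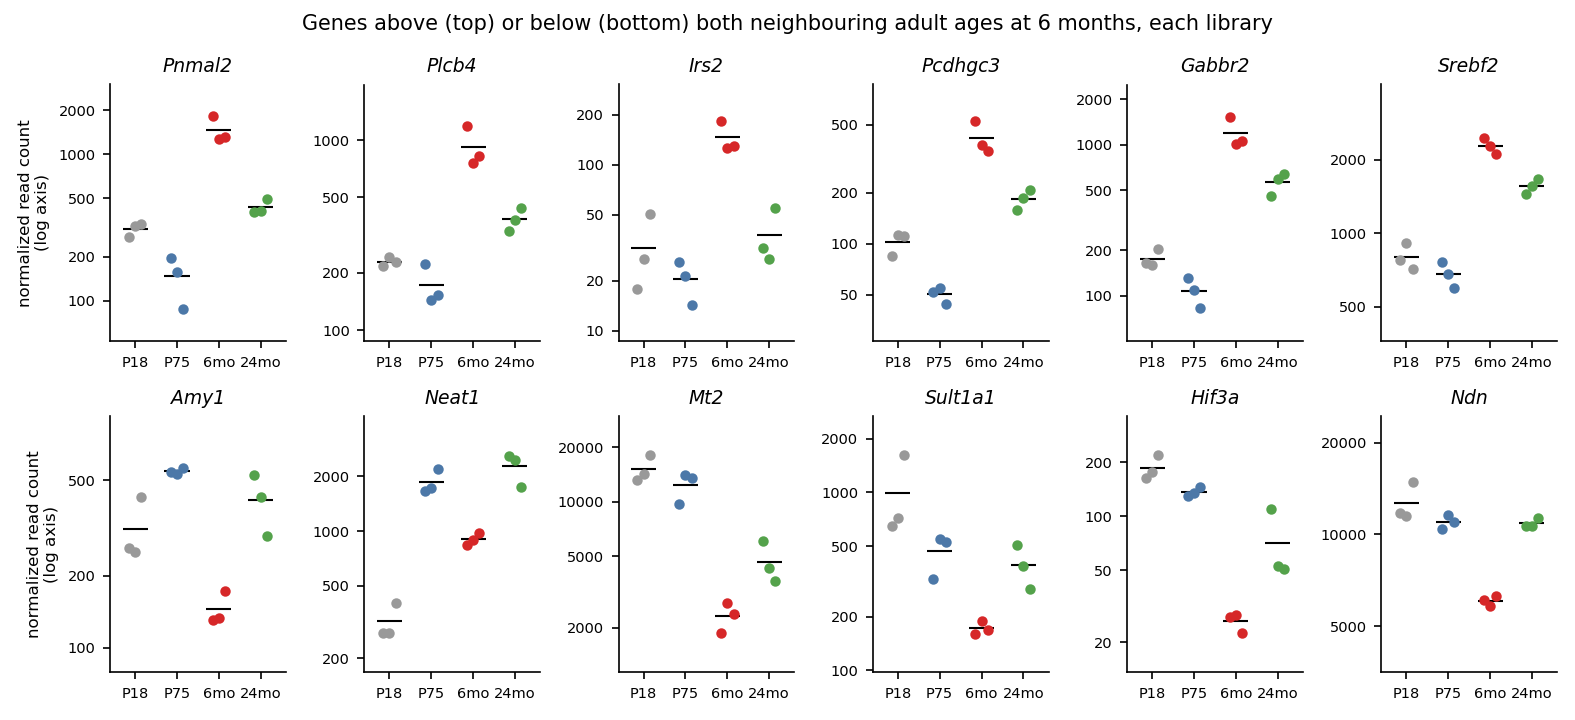
Normalized read count (log axis) of 6 genes with a peak (top row) and 6 with a trough (bottom row) at 6mo, by age, with 1 point per library and a line at the mean of the 3 libraries of an age. In each panel the 3 libraries of 6mo lie outside all 6 libraries of P75 and 24mo, and P18 lies on either side.

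The steepest peaks were lowest at P75, with 24mo between P75 and 6mo in the mean. Pnmal2, a gene of the paraneoplastic antigen family (a single exon at chr7:17530031-17532427, build NCBIM37, which is mm9), had 195, 157 and 87 at P75, 1824, 1279 and 1309 at 6mo and 405, 413 and 492 at 24mo. The lowest 6mo library was more than 2-fold above the highest library of the other ages, and the difference from the pooled ages was 2.56 ± 0.19 (SE, adjusted p = 4.59e-07). Irs2, an adaptor that passes on the signal of the insulin and IGF receptors (chr8:10986980-11008458), had 26, 21 and 14 at P75, 184, 126 and 128 at 6mo and 32, 27 and 55 at 24mo. It rose by 2.78 from P75 and by 1.97 from 24mo, and the P18 libraries, at 18, 27 and 50.2, lay with those of P75 and 24mo.

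Plcb4, a phospholipase C that acts downstream of G-protein-coupled receptors, had 221, 145 and 154 at P75, 1190.2, 762 and 825 at 6mo and 333, 379.5 and 442 at 24mo. Dusp8, a phosphatase that switches off MAP kinases, had 76, 50.1 and 38 at P75, 238, 215 and 181 at 6mo and 75, 79 and 109 at 24mo. In Zmiz1, a transcriptional coactivator, the counts were 188, 136 and 88 at P75, 661, 504 and 452 at 6mo and 232, 230.3 and 244 at 24mo. All 3 genes had their 6mo libraries apart from the other 6, with pooled differences of 1.83 ± 0.15, 1.63 ± 0.19 and 1.59 ± 0.17. Cpeb4, which binds the cytoplasmic polyadenylation element of mRNAs, had 85, 36 and 31 at P75, 257, 211 and 194 at 6mo and 78, 99 and 104 at 24mo. Clvs1, a lipid-binding protein of clathrin-coated vesicles, had 35, 35 and 19.9 at P75, 238, 148 and 156 at 6mo and 59, 64 and 77 at 24mo, and Megf9, a membrane protein with EGF-like domains, had 68, 55 and 64 at P75, 409, 306 and 268 at 6mo and 122, 158 and 151 at 24mo. Klhl34 (1.59 ± 0.24), Lonrf2 (1.66 ± 0.13) and Itgb8, an integrin beta chain (1.61 ± 0.22), were of the same size and also did not overlap between 6mo and the other ages.

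Protocadherins of the gamma cluster, cell adhesion molecules with which neurons recognise their own processes, were 3 of the 15 peaks chosen by size. Pcdhgc3 had 52, 55 and 44 at P75, 524, 382 and 351 at 6mo and 158, 187 and 207 at 24mo, with a difference of 2.09 ± 0.15 (SE, adjusted p = 2.96e-07). Pcdhgc5 had 30.1, 14 and 5.53 at P75, 234, 154 and 179 at 6mo and 34, 56 and 94 at 24mo, and Pcdhga11 had 18, 24 and 14 at P75, 136, 103 and 93 at 6mo and 52, 41 and 52 at 24mo. The 6mo libraries were the highest in all 3 genes, and those of 24mo lay between 6mo and P75. Transcripts of this cluster share constant exons at their end, so how reads were divided between its genes is uncertain. Of 50 protocadherins tested, 27 were higher (54%), 5 lower, 19 peaks (38.0%) and 3 troughs. The median difference of these 50 genes was 0.57, which was 1.15 from P75 and 0.05 from 24mo. Transcript length was known for 60% of them, so the correction described below is void for this list. Outside the cluster, Pcdh7 had 412, 358 and 465 at P75, 1655, 1269 and 1417 at 6mo and 1048, 1209.9 and 1201 at 24mo and rose by 1.81 from P75 and by 0.32 from 24mo.

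Among predicted genes 2 peaks are named apart. Gm3893 (chr4:41961930-41963010, 2 exons) had 6.01, 19 and 9.95 at P75, 245, 233 and 218 at 6mo and 11, 16 and 18 at 24mo, a difference of 4.12 ± 0.27. Gm7120 had 11, 10.2 and 6.63 at P75, 164, 114 and 201 at 6mo and 65, 49.7 and 83 at 24mo. Gm3893 was low at both other ages, whereas Gm7120 was also above P75 at 24mo. Predicted genes of this kind can exist in copies that share reads, which leaves both counts uncertain.

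Among the genes with the deepest troughs were enzymes, metallothioneins and a nuclear long noncoding RNA. Amy1, an amylase (chr3:113258628-113309617), had 543, 532 and 564 at P75, 130.0, 133 and 173 at 6mo and 528, 426 and 292 at 24mo. It fell by 1.91 on the log2 scale from P75 and fell by 1.48 from 24mo, and the P18 libraries, at 260.2, 252 and 425, were above those of 6mo as well. Amy1 has close paralogs and overlaps Rnpc3. Neat1, the RNA scaffold of nuclear paraspeckles (chr19:5824708-5845478), had 1669, 1737 and 2209 at P75, 843, 899 and 981 at 6mo and 2605, 2477 and 1749 at 24mo. The 6mo libraries were below all others of the adult ages, while P18 was lower still at 276, 276 and 405. Sult1a1, a sulfotransferase of phenols, had 327, 549.8 and 527 at P75, 161, 191 and 169 at 6mo and 504, 385 and 288 at 24mo, a difference of -1.26 ± 0.24 (SE, adjusted p = 0.000772). Ndn (necdin), an imprinted gene of postmitotic neurons, was abundant and tight between libraries, with 10403, 11570.2 and 10963 at P75, 6066, 5807 and 6255 at 6mo and 10649.5, 10681 and 11329 at 24mo. It fell by the same amount from both sides, 0.86 on the log2 scale from P75 and fell by 0.85 from 24mo.

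The remaining troughs chosen by size covered varied functions. Wsb1, an adaptor of a ubiquitin ligase, had 2136, 1588 and 2051 at P75, 754, 663 and 820.3 at 6mo and 1608, 1379.6 and 1306 at 24mo. Nme7, a protein of the nucleoside diphosphate kinase family, had 6711, 8239.8 and 9116 at P75, 3558, 3585 and 4189 at 6mo and 7708, 7259 and 7008 at 24mo. Ddx26b, a relative of a subunit of the Integrator complex, had 1552, 1357 and 1474 at P75, 542, 456 and 622 at 6mo and 1149, 1066 and 989.5 at 24mo. In these 3 genes the 6mo values were about those of P18 or below them, P18 having 1169, 1104 and 1401 for Wsb1, 3326, 3084 and 4033 for Nme7 and 795, 711 and 1096 for Ddx26b. Thpo (thrombopoietin) had 156, 134 and 98 at P75, 44, 53 and 54 at 6mo and 128, 103 and 111 at 24mo, and Ovgp1 had 138, 143 and 137 at P75, 46, 33 and 49 at 6mo and 144, 102 and 105 at 24mo. Both were low at all ages, and the groups did not overlap. Tmem181b-ps (-1.38 ± 0.13) overlaps other genes and is named as a pseudogene, so its count is uncertain. Echdc2 (-1.03 ± 0.14), Ctla2a, an inhibitor of cysteine proteases (-1.10 ± 0.15), and Apoc1, an apolipoprotein (117, 177 and 216 at P75, 61, 93 and 72 at 6mo and 149, 146 and 116 at 24mo), completed the set, and of the predicted genes 4930447C04Rik (-1.33 ± 0.14) and 2810008D09Rik (-1.48 ± 0.15) fell the most.

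Mt1 and Mt2 encode metallothioneins, small proteins that bind zinc and copper and are induced by metals and by glucocorticoids, and lie next to each other on chromosome 8. The 250 bases before the start of Mt2 (RefSeq, build GRCm38.p6, plus strand) are shown because it was the deeper of both troughs. Those of Mt1 are not shown, since the RefSeq start may lie upstream of its main start. Capitals mark matches on either strand to TGCNCNC, the core of the metal response element.
Mt2 (chr8:94172368-94172617): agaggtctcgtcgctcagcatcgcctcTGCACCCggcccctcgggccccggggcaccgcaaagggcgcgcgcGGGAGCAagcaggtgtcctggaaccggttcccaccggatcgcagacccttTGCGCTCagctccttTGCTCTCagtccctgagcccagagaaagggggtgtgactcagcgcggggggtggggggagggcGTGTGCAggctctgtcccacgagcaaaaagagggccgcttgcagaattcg
Mt2 held 5 matches, whereas the 250 bases before the RefSeq starts of Mt1 and of Mt3, a further metallothionein gene, held 1 each. The same letters occurred at least once before 58.1% of the 10303 tested genes with a RefSeq promoter, and at least 5 times before 0.611%. A match is a description of the sequence and not of binding.

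Mt1 had 15336, 21314 and 21798 at P75, 3609.6, 5533 and 4760.4 at 6mo and 10454, 7553 and 7357 at 24mo, and Mt2 had 9643, 14124 and 13438 at P75, 1872, 2737 and 2396 at 6mo and 6017, 4313 and 3646 at 24mo. Both were lowest at 6mo without overlap, and P75 was the highest of the 3 adult ages. Mt1 fell by 2.08 on the log2 scale from P75 and fell by 0.87 from 24mo, and Mt2 by 2.41 on the log2 scale from P75 and fell by 0.98 from 24mo. The levels at P18 were 20597, 21415 and 28832 for Mt1 and 13221, 14289.9 and 18049 for Mt2, so 6mo was the lowest of all 4 ages. Both transcripts are short, and after a correction for transcript length and GC content, described below, the pooled differences were -0.98 and -1.17, both still called.

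Metallothioneins belong to a list of 23 glucocorticoid-responsive genes, the targets of the steroid hormone of stress, of which 13 were lower (56.5%), 3 higher, 7 troughs (30.4%) and 2 peaks. The median difference of the list was -0.45, against -0.01 over all genes tested, and -0.58 after the correction, with 13 lower and 8 troughs. Hif3a, a hypoxia-inducible factor subunit (chr7:17616856-17647776), had 130.3, 134 and 145 at P75, 28, 28 and 22 at 6mo and 110.0, 53 and 51 at 24mo, and a difference of -1.84 ± 0.20 (SE, adjusted p = 9.81e-06). The highest of its 6mo libraries was below the lowest of the other 9 libraries of the series, P18 having 164, 176 and 219. Nr3c2, the mineralocorticoid receptor, which binds the same hormones, went the other way with 91, 83 and 67 at P75, 359, 288 and 261 at 6mo and 167, 161 and 159 at 24mo, a rise by 1.90 from P75 and by 0.88 from 24mo.

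Immediate early genes, many of them for transcription factors, are switched on within minutes of a stimulus to a cell. Of 26 tested, 12 were higher (46.2%), 2 lower, 8 peaks (30.8%) and 1 trough, with a median difference of 0.23 (0.26 with 9 peaks after the correction). Egr2, also the master regulator of myelin in peripheral nerve (chr10:66998223-67004936), had 83, 61 and 92 at P75, 224, 236 and 262 at 6mo and 76, 123.3 and 131 at 24mo. Nr4a2, an orphan nuclear receptor (chr2:56959241-56976414), had 417, 388 and 444 at P75, 872, 894 and 886 at 6mo and 571, 666 and 679 at 24mo and a difference of 0.78 ± 0.08 (SE, adjusted p = 7.65e-06). Fosl2 had 329.7, 333 and 340.5 at P75, 691, 636 and 657 at 6mo and 420.0, 503 and 533 at 24mo, and Fosb 77, 71 and 92 at P75, 178, 176 and 171 at 6mo and 99, 103 and 144 at 24mo, both subunits of the AP-1 factor. At P18 Fosb (162, 97 and 179.8) overlapped 6mo, and the highest library of Egr2 (194, 109.6 and 217) came close to it, so Fosb stood apart at 6mo among the adult ages only.

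The half-site TGACG of the cAMP response element, which CREB binds in many immediate early genes, was looked for on both strands in the 250 bases before the start. It occurred in 15 of the 21 immediate early genes with a RefSeq promoter (71.4%), and before 29.3% of all 10303 genes. Nr4a2 is shown as the immediate early gene with the smallest p of the list, with its 4 matches in capitals (minus strand of the genome, GRCm38.p6).
Nr4a2 (chr2:57124004-57124253): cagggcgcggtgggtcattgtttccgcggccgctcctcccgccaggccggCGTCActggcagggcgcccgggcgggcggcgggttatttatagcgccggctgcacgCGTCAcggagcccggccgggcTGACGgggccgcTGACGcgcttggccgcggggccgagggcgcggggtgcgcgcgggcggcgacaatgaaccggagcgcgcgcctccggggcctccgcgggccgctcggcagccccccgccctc
The full element TGACGTCA, which contains the half-site, occurred in 2 of the 21 genes and before 2.97% of all.

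The clock genes were mixed, with 9 of 21 higher, 3 lower, 3 peaks and 1 trough. Cry2, a repressor of the clock, had 1138, 1126 and 1051 at P75, 1780.0, 1731 and 1824 at 6mo and 1445, 1315 and 1394 at 24mo, and Bhlhe40, another repressor, had 1633, 1743 and 1622 at P75, 2705, 2820.0 and 2646 at 6mo and 2141, 2284 and 2223 at 24mo. Per3 fell, with 807, 763 and 786 at P75, 448, 498 and 507 at 6mo and 746, 645 and 518 at 24mo. Nfil3 had 88, 93 and 53 at P75, 218, 198 and 218 at 6mo and 131, 160.0 and 206 at 24mo, with 1 library of 24mo inside the range of 6mo. The time of day at which the brains were taken was not given in the sources used here.

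Transcript length moved with the difference at 6mo and is therefore given before the gene families that are short. Over the 1416 genes with the shortest transcripts, of 10 groups by length (median 975.5 bases of the longest coding transcript in GENCODE vM1) the median difference was -0.42, which was -0.59 from P75 and -0.27 from 24mo. Of these genes 34.9% had a trough and 1.48% a peak. Over the 1416 longest (median 7813.5 bases) the median was 0.11, with 18.9% peaks and 5.30% troughs. The shortest group lay at -0.53, -0.29 and -0.23 in the 6mo libraries relative to the mean of the 12 libraries, between -0.14 and -0.07 at 24mo and between 0.13 and 0.28 at P75. A correction of each library for length and GC content with splines, chosen after the data had been seen, left 1651 peaks (11.7% of 14153 genes) and 1127 troughs (7.96%). Of the peaks of genes with a known length, 73.3% were kept, and of the troughs 51.0%. The part of transcript length in the results was not tested beyond this correction.

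**Figure D2:**
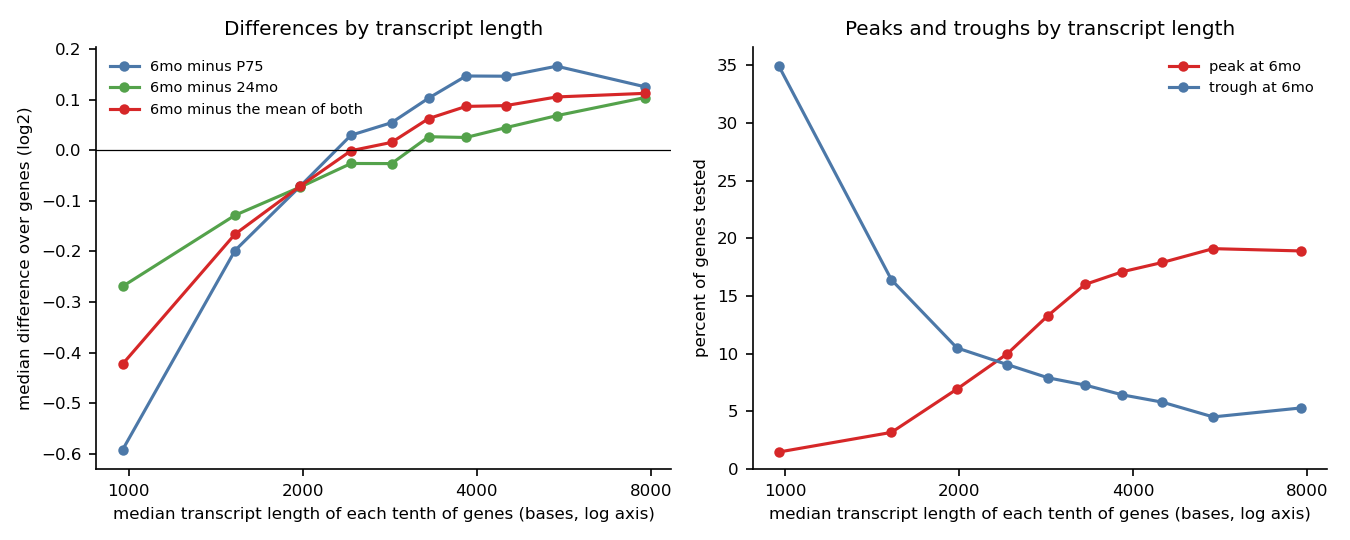
Median difference at 6mo (left, log2) and percent of genes with a peak or a trough (right) in 10 groups of tested genes ordered by transcript length (bases, log axis). Troughs fell from 34.9% in the shortest group to 5.30% in the longest, and peaks went from 1.48% to 18.9%.

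Genes of protein synthesis and respiration, most of them short, were lower, by less after the correction. Of 75 nuclear genes of oxidative phosphorylation, the respiratory chain and ATP synthase of mitochondria, 60 were lower (80.0%), 4 higher, 50 troughs (66.7%) and 3 peaks, with a median of -0.52 and a median length of 955 bases. After the correction 30 were lower, 11 higher and 6 troughs, and the median was -0.14. Over all genes the correction left 22.7% lower and 7.96% troughs, so the share of troughs in this list was then near that of all genes. Ndufa6, a subunit of complex I (chr15:82180569-82184721), had 6179, 6869 and 8312 at P75, 2348, 2903 and 3321 at 6mo and 4419, 4138 and 3883 at 24mo, and Ndufa5, another, had 5545, 6674 and 7275 at P75, 2155, 2792 and 3098 at 6mo and 4119, 3868 and 3525 at 24mo. Their differences of -0.94 ± 0.11 and -0.91 ± 0.11 became -0.40 and -0.51 after the correction. All 6mo libraries were below those of the other ages in both genes.

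Of 79 cytosolic ribosomal proteins, 72 were lower (91.1%), 1 higher, 31 troughs (39.2%) and none a peak, with a median of -0.64 and a median length of 861 bases. With the correction 29 were lower, 1 was a trough and the median was -0.23. Rps25 (chr9:44215797-44218488) had 18249, 19492 and 23116 at P75, 7027, 10084 and 11283 at 6mo and 15131, 13083 and 11767 at 24mo, and Rpl27 had 11572, 13033 and 13498 at P75, 4681, 6990.0 and 6584 at 6mo and 9042, 7757 and 7070.2 at 24mo. In both, replicate 1 of 6mo was the lowest of all. Of 75 mitochondrial ribosomal proteins, 59 were lower (78.7%), 1 higher and 30 troughs (40.0%), with a median of -0.35, which the correction brought to 31 lower, 6 troughs and -0.11. The troughs of both ribosomal lists were then near or below the 7.96% over all genes. Mrps16 had 1204, 1297 and 1342 at P75, 525, 615 and 635 at 6mo and 764, 757 and 780.3 at 24mo, a difference of -0.75 ± 0.08 that was -0.22 after the correction, and Mrpl53 had 1208, 1292 and 1425 at P75, 524, 566 and 695 at 6mo and 812, 721 and 833 at 24mo.

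Translation factors were divided. Of 64 tested, 13 were higher, 22 lower, 12 peaks (18.8%) and 7 troughs, and after the correction 17, 16, 14 and 2. Eef1a2, the elongation factor of neurons and muscle, had 8067, 9198 and 6619 at P75, 14842, 15079.8 and 13487 at 6mo and 9399, 9624 and 10890.4 at 24mo, while Eif1b had 4529.5, 5188 and 4989 at P75, 2452, 2958 and 3122 at 6mo and 3494, 3677 and 3673 at 24mo. Of 38 proteasome subunits, 25 were lower, 4 higher, 7 troughs and 4 peaks, with a median of -0.25. After the correction 7 were lower, 9 higher, none a trough and 6 peaks, with a median of -0.02. Psmd11, a subunit of the regulatory particle, rose from both sides with 427, 396 and 381 at P75, 795, 755 and 710.4 at 6mo and 498, 512 and 542 at 24mo. Of 79 heat shock proteins and chaperones, 23 were higher and 19 lower, and after the correction 23 and 11. Dnajc5, a chaperone of synaptic vesicles, had 1275, 1026 and 794 at P75, 3126, 2845 and 2636 at 6mo and 1725, 1923 and 1973 at 24mo and mitochondrial Hspa9 had 3117, 2950.3 and 3219 at P75, 6273, 5470.4 and 5315 at 6mo and 4124, 3989.7 and 4158 at 24mo, whereas Hspe1, a short mitochondrial chaperonin, had 3569.5, 3644 and 4101 at P75, 1818, 2142 and 2339 at 6mo and 2595, 2730.1 and 3019.5 at 24mo. The difference of Hspe1 was -0.63 ± 0.09 and -0.20 after the correction.

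Replication-dependent histones and long noncoding RNAs had more lower than higher genes. Of 10 histone genes tested 5 were lower, none higher and 2 troughs, with a median of -0.51, and after the correction 3 were lower and the median was -0.25. Hist1h2bc had 1561, 1728 and 1999 at P75, 483, 595 and 654 at 6mo and 796, 785 and 928 at 24mo. Of 21 long noncoding RNAs 11 were lower (52.4%), 9 troughs (42.9%) and 1 a peak. Snhg3 and Snhg6, hosts of small nucleolar RNAs, had 299.6, 315 and 327 at P75, 93, 113 and 132 at 6mo and 254, 177 and 143 at 24mo and 1135, 984 and 1460.3 at P75, 329.9, 428 and 539 at 6mo and 779.6, 633 and 599.8 at 24mo. Mirg, a noncoding RNA of an imprinted cluster, had 216, 189 and 187 at P75, 133, 148 and 177 at 6mo and 304, 317 and 360.1 at 24mo, and was highest at 24mo. Coding transcript length was known for 4.76% of this list, so the correction says nothing of it.

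Among genes of glycolysis more were higher than lower. Of 22 genes of glycolysis and lactate, 12 were higher (54.5%), 2 lower, 10 peaks (45.5%) and none a trough, with a median of 0.30. With the correction these were 12, 2, 8 and 1, and the median was 0.21. The summed level of the list was 238825 to 290195 at P75, 246701 to 270821 at 6mo and 219357 to 229994 at 24mo. It thus overlapped between 6mo and P75. Hk1, the hexokinase that commits glucose to the pathway, had 3568, 4380.0 and 3245 at P75, 6408, 6173 and 5714 at 6mo and 4052, 4021 and 4367 at 24mo. Pgk1, phosphoglycerate kinase, had 8751, 8448 and 8357 at P75, 14901, 14713 and 13946 at 6mo and 10399.9, 10969 and 11396 at 24mo, with a difference of 0.59 ± 0.07 (SE, adjusted p = 2.81e-05). Tpi1, triosephosphate isomerase, had 8279, 8318 and 7895 at P75, 12618, 13299 and 12286 at 6mo and 9031, 9334 and 9983 at 24mo. Their 6mo libraries were the highest of the adult ages in all 3 genes, and P18 was above P75 in each. Eno1 (1.60 ± 0.21) also rose, but pseudogene copies may share its reads.

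**Figure D3:**
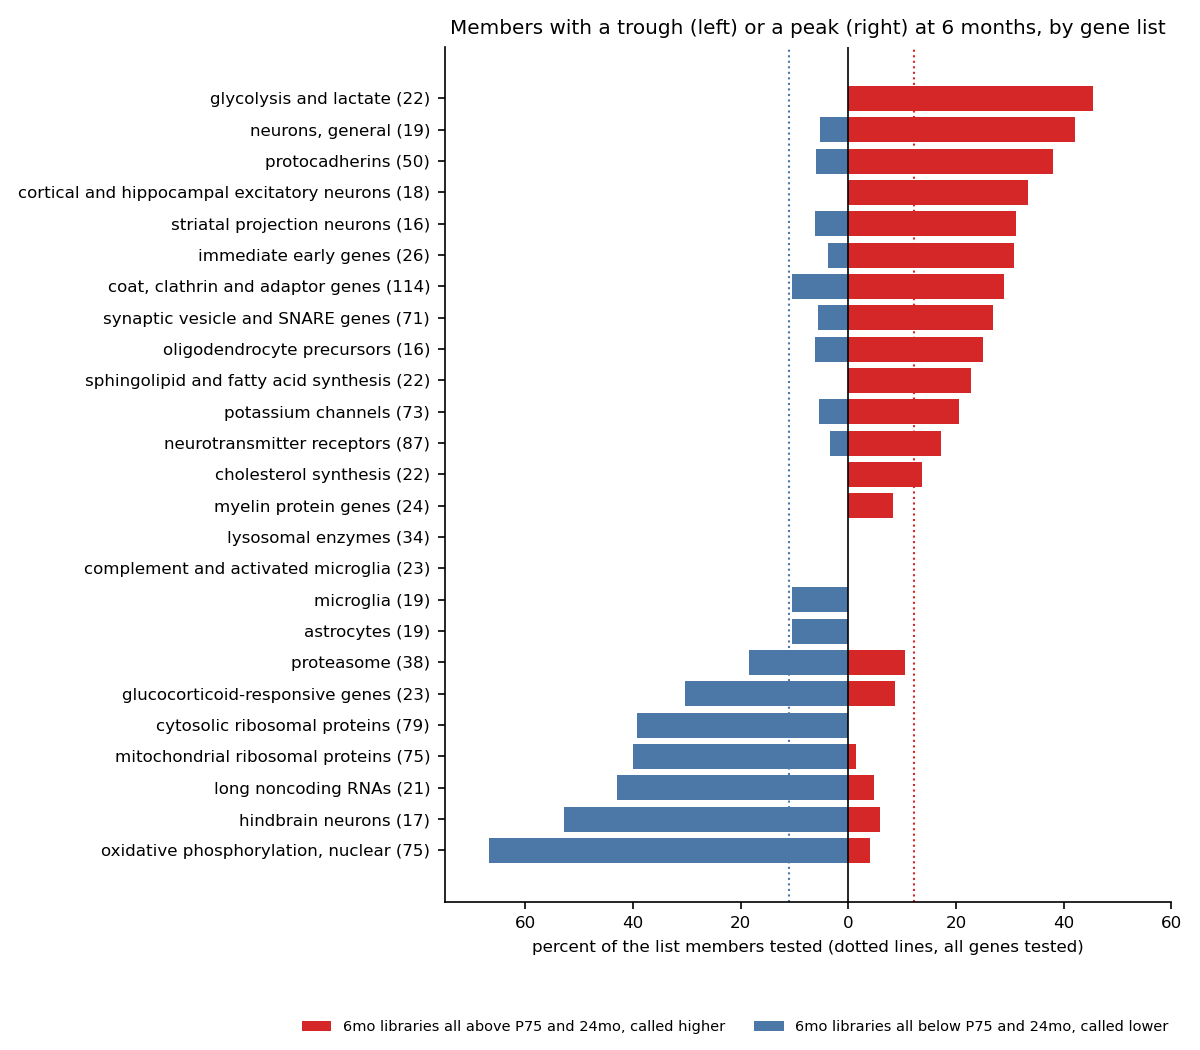
Percent of the tested members of 25 gene lists (number tested in parentheses) with a trough (left) or a peak (right) at 6mo, with the percent over all genes tested as dotted lines (11.1% and 12.2%). Glycolysis reached 45.5% peaks and nuclear genes of oxidative phosphorylation 66.7% troughs. These percents are without the correction for length and GC content. With it, the 50 troughs of oxidative phosphorylation became 6 and the 10 peaks of glycolysis became 8.

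Few genes of myelin itself were called in the fit reported, in which P18 entered the spread. Of 24 myelin protein genes, 5 were higher (20.8%), 2 lower, 2 peaks and none a trough, with a median of 0.13. The count of 5 was 10 in a fit of the 9 libraries of the adult ages alone, where 3753 of all genes tested were higher. It was also 10 without replicate 3 of P18, and 3 without replicate 2 of 6mo. Mbp had 1598645, 1130485 and 1067179 at P75, 1114065, 2048136 and 1185829 at 6mo and 1793465, 1476129 and 1213612 at 24mo, and the spread between the libraries of an age was larger than the difference of 0.04 ± 0.52 (SE, adjusted p = 0.96). Cnp, an enzyme of non-compact myelin, had 10448, 11629 and 10880.1 at P75, 14197, 14989 and 11111 at 6mo and 8291, 7569.6 and 8444 at 24mo. It was called higher (0.50 ± 0.13 (SE, adjusted p = 0.00569)), with 1 library of 6mo inside the range of P75, and not against P75 alone. Pllp (plasmolipin) was a peak, with 1642, 1560.4 and 1742 at P75, 2068, 2439 and 2185 at 6mo and 2000.1, 1571 and 1809 at 24mo. Hapln2, a link protein at the nodes of Ranvier, had 574, 607 and 738 at P75, 574, 601 and 601 at 6mo and 996, 958 and 966 at 24mo and was lower against 24mo (-0.72), not against P75 (-0.10). Ppp1r14a had 1016, 1081 and 1264 at P75, 405, 637 and 555 at 6mo and 678, 644 and 633 at 24mo, a call that was lost with the correction (-0.23).

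Lipids make up most of myelin by mass, and genes of lipid metabolism were mostly higher or not called. Of 22 genes of sphingolipid and fatty acid metabolism, 9 were higher (40.9%), none lower, 5 peaks (22.7%) and none a trough, with a median of 0.19. This list is mostly of synthesis but also holds Galc, Arsa and Asah1, which break sphingolipids down. After the correction 8 were higher, none lower and 3 peaks, with a median of 0.17. Fads2, a desaturase that makes polyunsaturated fatty acids (chr19:10138654-10175993), had 378, 367 and 273 at P75, 1369.8, 1444 and 1165 at 6mo and 714, 769.8 and 756 at 24mo and a difference of 1.40 ± 0.13 (SE, adjusted p = 3.83e-06). Fasn, fatty acid synthase, had 3332, 3786 and 3434 at P75, 4818, 4870.4 and 4462 at 6mo and 3372, 3296 and 3810.0 at 24mo, and Acly, which supplies its acetyl-CoA, had 3159.7, 3444 and 3607 at P75, 5064, 4528 and 4660.2 at 6mo and 3846, 4019 and 3972 at 24mo. All 3 were peaks. Of 22 genes of cholesterol synthesis 7 were higher (4 without replicate 1 of 6mo), 2 lower and 3 peaks (13.6%), near the share over all genes. Srebf2, the transcription factor that switches on the pathway (chr15:81977696-82035806), was a peak with 768, 683 and 599 at P75, 2469, 2287 and 2115 at 6mo and 1451, 1565 and 1672 at 24mo. Pmvk, an enzyme of the pathway, was lower, with 1649, 1831 and 1853 at P75, 1027, 1306 and 1169.7 at 6mo and 1333, 1301 and 1251 at 24mo, a call that was lost with the correction (-0.14).

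Among younger stages of the oligodendrocyte lineage, markers of precursors were raised in part. Those of newly formed oligodendrocytes were called higher about as often as all genes. Of 16 genes of oligodendrocyte precursors, 6 were higher (37.5%), 2 lower, 4 peaks and 1 a trough, with medians of 0.32 from P75 and 0.07 from 24mo. The summed normalized read count of the list was 10882 to 11340.0 at P75, 14359 to 15642 at 6mo and 13905 to 15359.5 at 24mo. Gpr17, a receptor of cells about to differentiate, had 292, 279 and 285 at P75, 542, 418 and 378 at 6mo and 136, 221 and 321 at 24mo, against 1592, 1490.3 and 1160.1 at P18. Sox6, a transcription factor of precursors, had 110.2, 115 and 91 at P75, 245, 205 and 189.8 at 6mo and 110.0, 128 and 144 at 24mo, and Ptprz1, a receptor phosphatase also of astrocytes, had 2349, 1917 and 2505 at P75, 4392, 3833 and 3712 at 6mo and 2883, 3565 and 3625 at 24mo. Of 13 genes of newly formed oligodendrocytes, 3 were higher (23.1%, against 23.3% of all genes), 2 lower and 1 a peak (7.69%), with a median of 0.03. The peak was Enpp6, with 83, 98 and 101 at P75, 188, 203 and 165 at 6mo and 94, 141 and 143 at 24mo. Tcf7l2, which is transient in new oligodendrocytes, was lower from P75 (-0.51) but not from 24mo (0.02).

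**Figure D4:**
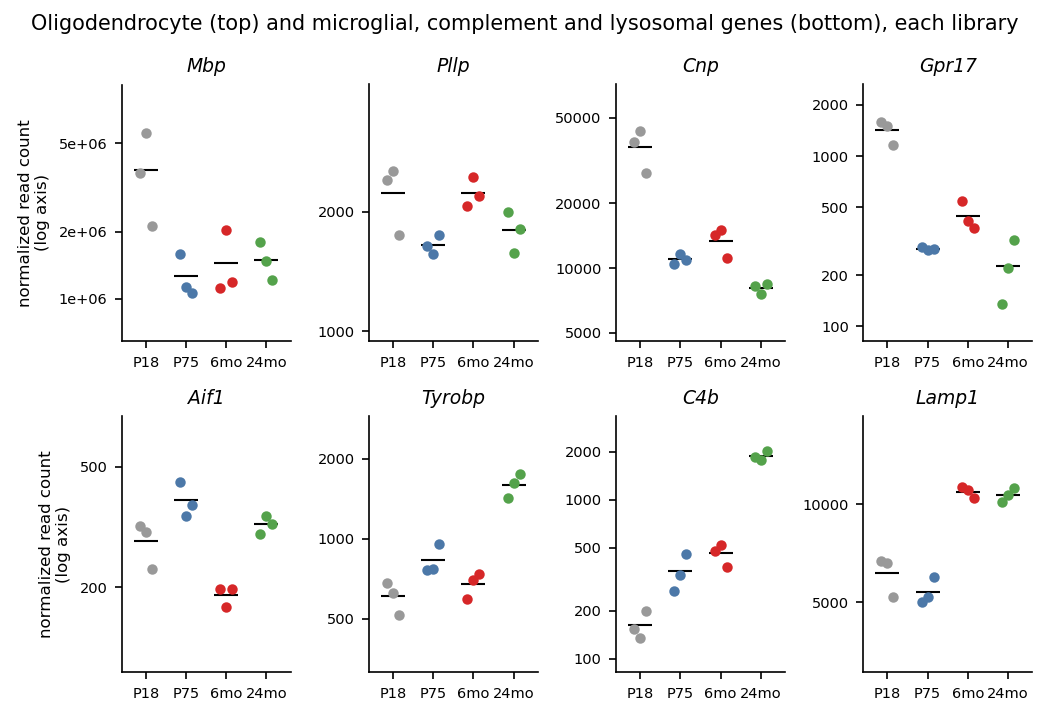
Normalized read count (log axis) of 4 oligodendrocyte genes (top row) and 4 genes of microglia, complement and lysosomes (bottom row) by age, with 1 point per library and a line at the mean of an age. Gpr17 and Aif1 had 6mo libraries apart from both ages, C4b was set apart at 24mo and Lamp1 was alike at 6mo and 24mo.

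Many transcripts of neurons, which the fraction also held, were higher at 6mo, by more against P75 than against 24mo. Of 19 general neuronal genes 12 were higher (63.2%), 2 lower, 8 peaks (42.1%) and 1 a trough, with a median of 0.34, and the summed level of the list was 298906 to 335586 at P75, 374986 to 428499 at 6mo and 351117 to 362516 at 24mo. Syt1, the calcium sensor of transmitter release (chr10:107934706-108448038), had 4142, 3940.5 and 3470.1 at P75, 22037, 18319 and 18059 at 6mo and 13645, 16051 and 17934 at 24mo. It rose by 2.34 from P75 and by 0.30 from 24mo, and the highest library of 24mo was just under the lowest of 6mo. Kif5a, a motor of axonal transport, had 63497, 47366 and 38789 at P75, 136368, 167627 and 118821 at 6mo and 113314, 117528 and 107895 at 24mo, and Slc17a7, the vesicular glutamate transporter of the cortex, had 6248, 6575 and 4571 at P75, 15474, 15193 and 14946 at 6mo and 12168, 13069 and 14219 at 24mo. Snap25 was 1 of the 2 lower genes, with 130496, 150174 and 143621 at P75, 87058, 88495 and 89430.3 at 6mo and 92028, 92731 and 90084 at 24mo, and its call (-0.36 ± 0.15 (SE, adjusted p = 0.0563)) was lost when any 1 library of 6mo (-0.37 to -0.35) or replicate 2 of 24mo (-0.36, adjusted p = 0.102) was left out, with no filter on low values (adjusted p = 0.178) and with the correction (-0.22). Among 18 genes of cortical and hippocampal excitatory neurons 9 were higher and 6 peaks (33.3%), and among 16 of striatal projection neurons 8 were higher and 5 peaks (31.2%). The median differences of the general, cortical and striatal lists were 0.43, 0.30 and 0.57 from P75 and 0.16, 0.14 and 0.03 from 24mo. With P75 and 24mo as 1 group, 5, 4 and 5 genes of these lists were higher. After the correction 10, 7 and 8 were higher and 6, 6 and 5 peaks, with medians of 0.22, 0.15 and 0.25.

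Among receptors and channels of neurons more were higher than lower. Of 87 neurotransmitter receptors, 35 were higher (40.2%), 9 lower, 15 peaks (17.2%) and 3 troughs, with a median of 0.17, which was 0.46 from P75 and -0.12 from 24mo. Gabbr2, a subunit of the GABA-B receptor (chr4:46675190-47004745), had 131, 108 and 83 at P75, 1522, 1007 and 1056 at 6mo and 459.7, 596 and 639 at 24mo and a difference of 2.26 ± 0.16 (SE, adjusted p = 2.96e-07). Chrm3, a muscarinic acetylcholine receptor, had 27, 37 and 29.9 at P75, 305, 222 and 221 at 6mo and 104, 137 and 164 at 24mo. Grm4, a presynaptic glutamate receptor, had 126, 89.9 and 78 at P75, 461, 389 and 396 at 6mo and 183, 203 and 266 at 24mo, and Drd2, a dopamine receptor, had 39, 28 and 24 at P75, 179.6, 139 and 105 at 6mo and 91, 93 and 96 at 24mo. Among the adult ages the 4 receptors were lowest at P75 and highest at 6mo, and P18 lay near P75, as in Gabbr2 with 165, 159 and 203.

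Of 73 potassium channels, 38 were higher (52.1%), 8 lower and 15 peaks. The median was 0.34, which was 0.61 from P75 and 0.03 from 24mo. Kcnj3 and Kcnj9, the channels that G proteins open, had 75, 73 and 78 at P75, 441, 304 and 307 at 6mo and 158, 227 and 267 at 24mo and 468, 428 and 381 at P75, 1363, 1133 and 1208 at 6mo and 733, 889 and 1038 at 24mo. Of 54 sodium, calcium and chloride channels, 19 were higher, 8 lower and 8 peaks (14.8%). The median was 0.11, which was 0.38 from P75 and -0.07 from 24mo. The correction turned the pooled median to -0.04, with 17 higher and 15 lower. Cacnb1, a calcium channel subunit, had 263, 206 and 167 at P75, 564, 515 and 479 at 6mo and 226, 248 and 314 at 24mo, and Cacng8, an auxiliary subunit of AMPA receptors, had 40.1, 34 and 23 at P75, 212, 205 and 202 at 6mo and 118, 123.3 and 143 at 24mo. All 4 genes were peaks.

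In genes of vesicle traffic peaks outnumbered troughs. Of 71 genes of synaptic vesicles and SNARE proteins, 38 were higher (53.5%), 9 lower, 19 peaks (26.8%) and 4 troughs. Napb, which takes SNARE complexes apart, had 2269.8, 1861 and 1688 at P75, 6984, 5925 and 5767 at 6mo and 3382, 3847 and 3720.2 at 24mo, and Rims2, a scaffold of the active zone, had 626, 502 and 458 at P75, 1699.6, 1880.0 and 1465 at 6mo and 1332, 1284 and 1128 at 24mo. Of 114 genes of vesicle coats, clathrin and adaptors, 41 were higher (36.0%), 23 lower, 33 peaks (28.9%) and 12 troughs, and 33 peaks and 5 troughs after the correction. Ap2b1 and Ap1g1, subunits of the adaptors of the plasma membrane and the Golgi, had 2986, 3372 and 2896 at P75, 5986, 5558 and 5455 at 6mo and 3307, 3639 and 3914 at 24mo and 266, 247 and 206 at P75, 617, 461 and 477 at 6mo and 294, 318 and 329 at 24mo. Of 51 Rab GTPases 13 were higher (25.5%), 15 lower (29.4%), 11 peaks (21.6%) and 6 troughs (11.8%), with a median of -0.06. The shares higher and lower were near those over all genes (23.3% and 24.7%). Rab7, the GTPase of late endosomes (chr6:87949100-87995264), had 684, 629 and 407 at P75, 1908, 1821 and 1657 at 6mo and 1107, 1059 and 1189 at 24mo and a difference of 1.18 ± 0.12 (SE, adjusted p = 7.52e-06). Among 56 kinesins and dyneins 16 were higher (10 without replicate 2 of 6mo), 11 lower and 10 peaks (17.9%). Dync1li1, a chain of the dynein motor, had 374, 356 and 277 at P75, 1397, 1129 and 1198 at 6mo and 694, 778 and 759 at 24mo, a rise by 1.89 from P75 and by 0.73 from 24mo.

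Among markers of hindbrain neurons more were lower than higher. Of 17 genes that mark hindbrain neurons, 10 were lower (58.8%, and 6 genes without replicate 1 of 6mo), 4 higher, 9 troughs (52.9%) and 1 a peak, with a median of -0.86 (-0.98 after the correction), and their summed level was 1064 to 1343 at P75, 850 to 1037 at 6mo and 1091 to 1209 at 24mo. Most of these genes had low counts. With a filter for a mean of 100 only 5 were tested, of which 3 were lower and 1 higher. A pseudocount of 10 brought the median of the list to -0.66. Hoxa5, a transcription factor of the caudal hindbrain and spinal cord (chr6:52151753-52154586), had 135, 189 and 192 at P75, 28, 49 and 55 at 6mo and 122, 80.0 and 92 at 24mo and 239, 155 and 17 at P18. Its 6mo libraries were below the other adult libraries, and the call (adjusted p = 0.0278) was lost without replicate 1 of 6mo (adjusted p = 0.145). Hoxa5 overlaps other genes of its cluster. Prph, an intermediate filament of motor neurons, had 138, 186 and 149 at P75, 77, 112 and 97 at 6mo and 152, 137 and 176 at 24mo. Of 17 genes of cerebellar neurons 7 were higher, 3 lower, 1 a peak and 2 troughs, with a median of 0.08. Of 16 hypothalamic neuropeptides 1 was higher, 3 lower and 2 troughs, with a median of -0.28, and after the correction 4 were higher and 1 lower, with a median of 0.18.

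Immune genes differed mostly between 6mo and 24mo. Of 23 genes of complement and activated microglia 13 were lower (56.5%), with none a peak and none a trough, and the median difference was 0.33 from P75 and -0.92 from 24mo. With P75 and 24mo as 1 group, 1 of the 23 was lower. C4b, a complement component, had 267, 337 and 459 at P75, 479, 523 and 380.5 at 6mo and 1851, 1792 and 2038 at 24mo, a difference of -2.05 from 24mo and 0.40 from P75. C3 had 41, 37 and 52 at P75, 35, 43 and 28 at 6mo and 131, 169.8 and 156 at 24mo, and Lyz1, a lysozyme, had 57, 53 and 52 at P75, 37, 39 and 76 at 6mo and 221, 275 and 296 at 24mo. Of 19 microglial genes, 9 were lower (5 without replicate 3 of 6mo, 4 after the correction), 2 higher and 2 troughs (10.5%), with a median of -0.14 (-0.05 after the correction), and the summed level of the list was 13102 to 14654 at P75, 15087 to 17247 at 6mo and 23449 to 29286 at 24mo. The troughs were Aif1 (IBA1), with 446, 344 and 375 at P75, 197, 172 and 197 at 6mo and 300.2, 343 and 324 at 24mo, and Tyrobp, an adaptor of Trem2, with 761, 771 and 956 at P75, 593, 698 and 739.6 at 6mo and 1424, 1618 and 1754 at 24mo. Both are short, and after the correction the differences were -0.51 and -0.24. C1qc and Trem2, called lower in the pooled comparison, were not called against P75 (0.02 and 0.17), and the pooled call of Trem2 was lost with the correction. B2m, the light chain of the MHC class I complex, had 3159, 3071 and 3133 at P75, 3609.6, 3635 and 3404 at 6mo and 5827, 7146 and 6714 at 24mo. It was called lower (-0.35 ± 0.07 (SE, adjusted p = 0.0015)), and the correction turned the sign (0.17).

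Lysosomal enzymes lay nearer to 24mo than to P75. Of 34 tested, 11 were higher (32.4%), 2 lower and none a peak or a trough, with a median of 0.54 from P75 and -0.26 from 24mo, and with P75 and 24mo as 1 group none was called. Lamp1, a membrane protein of lysosomes, had 5016, 5171 and 5962 at P75, 11326, 11073 and 10424 at 6mo and 10185, 10662 and 11259.8 at 24mo, and Asah1, acid ceramidase, had 833, 750.1 and 869 at P75, 1750.0, 1588 and 1535 at 6mo and 1566, 1786 and 1840.2 at 24mo. Against P75 the differences were 1.03 and 0.99, and against 24mo 0.03 and -0.09, neither of which was called (adjusted p = 0.867 and 0.511).

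In the lists of other cell types the shares of peaks and troughs were near or below those over all genes (12.2% and 11.1%). Lists of this size hold few of either at such shares. Of 19 astrocyte genes 3 were higher, 5 lower (3 without replicate 1 or replicate 3 of 6mo), none a peak and 2 troughs (10.5%), and the summed level was 176362 to 178312 at P75, 159281 to 181454 at 6mo and 161496 to 170392 at 24mo. Itga7, an integrin of perivascular astrocytes, had 298, 287 and 315 at P75, 267, 261 and 246 at 6mo and 372, 381 and 413 at 24mo, and Ntsr2, a neurotensin receptor, had 4138, 4619 and 4142 at P75, 2339.8, 2793 and 2740.3 at 6mo and 3039, 3118 and 3393 at 24mo. Of 16 endothelial genes 5 were higher (3 without replicate 1 of 6mo), 3 lower, 1 a peak and 1 a trough, Ly6c1, with 127, 177 and 184 at P75, 84, 75 and 79 at 6mo and 108, 149 and 106 at 24mo. Of 13 meningeal and perivascular fibroblast genes 5 were higher and 1 a peak, Slc6a20a, with 28, 19 and 41 at P75, 201, 194 and 199 at 6mo and 149.6, 167 and 136 at 24mo, and their summed level was 3936 to 4595 at P75, 6739 to 6986 at 6mo and 6773 to 7943 at 24mo. Of 11 ependymal genes 6 were lower and none a trough, with a median of -0.62, and after the correction 3 were lower, 1 higher and the median was -0.15. Rsph1, of motile cilia, had 161, 162 and 161 at P75, 61, 72 and 67 at 6mo and 65, 79 and 79.6 at 24mo. Of 14 choroid plexus genes 3 were higher and none a peak, and of 12 mural genes 4 were higher, 3 lower and 1 a peak. The part of these cell types in the values of other genes was not tested.

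Of 24 cell cycle genes 6 were higher (3 without replicate 1 of 6mo and 3 after the correction), 4 lower and 3 peaks (12.5%). Ccnd2, a cyclin of the G1 phase, had 384, 319 and 307 at P75, 634, 641 and 597 at 6mo and 328, 375 and 494 at 24mo.

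The P18 libraries entered the filter and the estimate of the spread, but not the pooled difference or the conditions for a peak or a trough. Their levels describe where the youngest age lay relative to 6mo. Peaks and troughs were chosen for extreme values at 6mo, which in itself favours P18 values on the side of the other ages. The share over all genes tested was not counted, so these counts are a description only. Of the 1787 peaks, 1119 (62.6%) had all 3 P18 values below all 3 values of 6mo, 179 (10%) had them above, and 489 overlapped. Of the 1618 troughs, 1136 (70.2%) had P18 above 6mo, 66 (4.08%) below, and 416 overlapped. Of the 59 peaks of 2-fold or more, 58 (98.3%) had P18 below 6mo, as in Pnmal2 with 271, 325 and 333 at P18. Of the 48 troughs of 2-fold or more, 27 (56.2%) had P18 above 6mo, as in Mt2, and 1 had it below. This was Neat1.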

How the data were processed

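Libraries were made from total RNA of the myelin fraction by a standard Illumina preparation. The authors aligned reads to mm9 with TopHat (TopHat2 2.0.8 in the submitters' processing notes, another version in the paper's methods), counted them on genes with HTSeq-count (0.5.4p1) and scaled each library by its DESeq size factor. The deposited signal is this scaled read count per gene, called normalized read count here, with no division by length. Strand and the handling of multiply mapped reads were not given in the sources used here. Nearly every value was a whole multiple of 1 read (tolerance 0.006), from which depth and reads were recovered.

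Ages and replicate numbers came from the labels, and each of the 12 columns matched 1 library. All 12 libraries were fitted with limma 3.58.1 (trend, empirical Bayes, R 4.3.3) on log2(value + 1), with 4 age groups, for genes with a mean of at least 10. The contrast was 6mo minus the mean of P75 and 24mo, with Benjamini-Hochberg adjusted p under 0.1, in 1 two-sided test per gene. P18 thus enters the estimate of the spread. edgeR 4.0.16 and DESeq2 1.42.0 on the recovered reads, other pseudocounts, filters, scalings, thresholds and libraries left out were alternatives. Length and GC content came from the longest coding transcript of GENCODE vM1 (NCBIM37, the same sequence as mm9), and the correction used natural splines with 4 degrees of freedom each. Tables and plots used Python 3.11.15 with pandas 2.3.3 and matplotlib 3.10.9. The method was tested on simulated data.

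The comparison, the gene lists and the rule for named genes were chosen with earlier results of these data known. The rule took the 15 peaks with a mean over 100 at 6mo and the 15 troughs with means over 100 at P75 and at 24mo that had the largest difference to the nearer age (predicted genes and clones apart, 2 each way), up to 4 genes per list by smallest p, genes the study names and the most abundant genes. Not all of them are reported here.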

Additional observations from a re-analysis of the deposited data

How the results depend on the processing

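The direction of the pooled difference was kept for all genes named with values under every alternative run, except Mbp, Fth1 and B2m. Mbp, never called, had a log2 difference from -0.24 to 0.20 with 1 library left out (-0.02 without replicate 3 of P75, -0.24 without replicate 2 of 6mo and -0.03 without replicate 3 of 24mo), 0.00 with quantile normalization and -0.11 with the length and GC correction, with or without the replicate block. Fth1, not called, was at 0.00 with quantile normalization and at 0.10 with either correction. B2m turned to 0.17 with the length and GC correction, with or without the replicate block. With P75 and 24mo as 1 group, 1782 genes were higher and 1882 lower, by construction of a wider spread, and among the genes named Syt1, Kif5a, Slc17a7, Slc6a20a, Pmvk, Lamp1, Asah1, C3, C4b, C1qc, Lyz1, Trem2, B2m, Hapln2, Tcf7l2, Rsph1, Atp6v0a2 and Snap25 lost their calls. The counts of calls of 2-fold or more were the least stable. Those lower by 2-fold were 181 in the fit reported, 64 with a pseudocount of 10, 354 with no filter on low values, 47 with a filter for a mean of 100, 114 with the length and GC correction and 115 with this correction and the replicate block. Those higher by 2-fold were 134 with the filter for a mean of 100 in place of 294. The 59 peaks of 2-fold or more became 17 with that filter and 90 with quantile normalization, and the 48 troughs became 13 with a pseudocount of 10, 103 with no filter and 9 with the filter for 100, where 11305 genes were tested. The cause was not tested for the scalings and pseudocounts. Leaving out each library in turn gave 2551 to 3831 higher and 2644 to 4020 lower genes, 237 to 328 and 143 to 271 of 2-fold or more, 1689 to 2179 peaks, 1618 to 2181 troughs, 40 to 86 peaks and 45 to 79 troughs of 2-fold or more. The 79 troughs were found without replicate 3 of 6mo and 74 without replicate 3 of 24mo, where fewer libraries have to lie apart. edgeR gave 1753 peaks and 1704 troughs, and DESeq2 gave 1767 and 1607. Where genes were instead counted by a call against each age on its own, whatever the order of the single values, 1393 were higher and 1270 lower. The median over all genes tested stayed between -0.03 and 0.01 in every setting, and no list of 20 or more genes changed the sign of its median under another scaling or with 1 library left out, while the correction turned those of nucleotide metabolism and of the sodium, calcium and chloride channels. Same-numbered libraries had correlations of their deviations of 0.10 to 0.19 between P75 and 6mo, -0.09 to -0.04 between P75 and 24mo and -0.21 to -0.06 between 6mo and 24mo, so the numbers did not pair the libraries over the 3 ages compared. With the replicate block 3329 genes were higher, 3512 lower, 1763 peaks and 1609 troughs. Depth limits the genes with few reads, such as Pcdhga11 at P75.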

Other observations

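Of 335 zinc finger proteins named Zfp, 50 were higher, 93 lower, 26 peaks (7.76%) and 31 troughs (9.25%). Of 154 splicing and RNA-binding proteins, 28 were higher, 41 lower, 22 peaks (14.3%) and 26 troughs (16.9%) against 15 troughs after the length and GC correction. Sf3b2 and Snrpb, components of the spliceosome, were peaks with 2446, 2608 and 2635 at P75, 4217, 4009 and 3915 at 6mo and 2988, 2764 and 2984 at 24mo and 849.8, 837 and 745 at P75, 1349, 1496 and 1372 at 6mo and 955, 927 and 1054 at 24mo. Of 73 collagens, laminins and integrins, 8 were higher, 20 lower (13 without replicate 1 of 6mo), 3 peaks and 9 troughs, and after the correction 3 were higher and 29 lower. Of 25 interferon and antigen presentation genes, 10 were lower (6 without replicate 2 of 6mo, 5 after the correction), 1 higher and 1 a trough, with medians of 0.33 from P75 and -0.85 from 24mo. Of 19 subunits of the V-ATPase, the proton pump of lysosomes and synaptic vesicles, 7 were higher, 4 lower, 4 peaks and 4 troughs (12, 3, 6 and 1 after the correction), and Atp6v0a2 had 236, 262 and 205 at P75, 516, 510.4 and 516 at 6mo and 418, 436 and 484 at 24mo. Of 27 tubulins and microtubule-associated proteins 8 were higher, 5 lower (1 after the correction) and 4 peaks, with 6875, 7865 and 5469.9 at P75, 9376, 9353 and 8492 at 6mo and 5744, 6226 and 6931 at 24mo in Tuba4a.

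Fth1 and Mobp, both among the 10 genes with the most reads at 6mo, not divided by length, were not called. Fth1, the heavy chain of ferritin, had 524948, 418279 and 498505 at P75, 366269, 684863 and 559929.8 at 6mo and 1153021, 798462 and 656046 at 24mo, and Mobp, a protein of compact myelin, had 129178, 72930.4 and 78402 at P75, 117099.9, 185217 and 124658 at 6mo and 174144, 158651 and 139112 at 24mo. In both genes 6mo overlapped both other ages, while 24mo lay above P75.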
